A study of Mus musculus with 5 samples.

Results

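The core circadian clock genes of mouse hepatocytes were examined across 5 states between feeding and 24 h without food, each sampled at a recorded hour of the day. The members were fixed by name: Arntl (the gene of BMAL1), Clock, Npas2, Per1, Per2, Per3, Cry1, Cry2, Nr1d1 and Nr1d2. All 10 were found once each among the 32285 genes of the deposited feature table. Their values were read as CPM, the unique molecular identifiers (UMIs) of a gene scaled to the library's total of nuclear-encoded UMIs, summed over the hepatocytes of each library.

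The hepatocyte clock is a loop of transcription factors. BMAL1 pairs with CLOCK or its paralogue NPAS2 and activates genes that carry E-boxes, among them the Period, Cryptochrome and Nr1d genes. PER and CRY proteins then block this activator, and the nuclear receptors REV-ERB alpha and beta, encoded by Nr1d1 and Nr1d2, repress Arntl, Clock and Npas2 through ROR elements. In liver the phase of the loop follows meal times as well as light, and glucocorticoids and cAMP act on Per1 directly.

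The cells were total hepatocytes from the livers of C57BL/6J mice, all male, WT and on a normal chow lab diet. All mice had been trained for 3 days to eat between clock hours 9 and 17 and to fast for the other 16 h, so that the controls carried this daytime schedule too, and all received 20% sucrose in their water with the food on the last day. The fed library (0 h) was taken at hour 13 after 4 h of feeding, and food and sucrose were then withdrawn. The fasted libraries were taken after 4 h (hour 17), 8 h (hour 21), 16 h (hour 5 of the next day) and 24 h (hour 13 of the next day). Fasting time and hour of day therefore cannot be told apart, except that 0 h and 24 h share the hour. The light schedule and the number of animals in a library are not given in the sources used here. With 1 library per time point there was no test across animals: the 95% intervals below cover counting error only and describe these libraries.

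Each library held 10000 barcodes and 40002260 to 68330252 UMIs. The gate of 1000 or more UMIs, 500 or more genes and 2 to 30% mitochondrial UMIs kept 7826, 4567, 2716, 9125 and 4576 barcodes at 0, 4, 8, 16 and 24 h, with 33521626 to 45532684 nuclear-encoded UMIs. The 7 hepatocyte markers were all present in each library, with a summed level of 85724 to 115227 CPM. The 6 endothelial markers summed to 65.4 CPM at 0 h and 7.82 to 24.1 CPM elsewhere, and the 6 Kupffer cell and macrophage markers to 35.7 CPM at 0 h and 0.148 to 4.62 CPM elsewhere. The 5 cholangiocyte markers, the highest of these lists, summed to 78.1 CPM at 0 h, 76.1 CPM at 16 h and 27.0 to 48.3 CPM elsewhere, and the 5 stellate markers to 1.34 to 26.4 CPM. The 4 erythroid markers reached 14.7 CPM at 24 h and 1.80 CPM or less in the other libraries. Leaving out the 0.285% to 3.09% of gated barcodes that carried markers of another cell type changed neither the counts of members against fed nor that of the 4-fold span; other counts were not rerun without them. Between 2 libraries, 1 to 17 barcode sequences of gated cells were shared.

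The clock genes peaked at different hours. Arntl, Clock, Npas2, Per1, Cry1 and Cry2 were highest after 4 or 8 h of fasting (hours 17 and 21), and Nr1d1 and Nr1d2 after 16 h (hour 5). Per2 was highest in the fed library and Per3 in the 24 h library, which were both taken at hour 13. Both of these genes were lowest at hour 21. A gene was counted as higher or lower than fed when its CPM differed at least 2-fold and reached 5 in either library. Npas2, at 4.97 CPM in its highest library, fell just short of this minimum, and the other 9 passed it. After 4 h, 1 of the 9 was higher (3.75% of 8844 genes were) and 3 were lower (6.72%, and 10.5% either way). For the 8 h library 3 were higher (5.54% of 8884 genes) and 4 were lower (11.8%, and 17.3% either way). In the 16 h library 1 was higher (3.0% of 8867 genes) and 2 were lower (4.18%, and 7.18% either way). After 24 h, at the hour of the fed library, 1 was higher (4.92% of 8888 genes) and 1 was lower (9.39%, and 14.3% either way). These 4 comparisons share the fed library. The median log2 ratio of the 9 genes, with 1 CPM added, was 0.69, 0.21, 0.18 and 0.14 in the order of fasting time, beside -0.10, -0.089, -0.026 and -0.10 over all genes tested. With TMM scaling 4 members passed 2-fold higher after 4 h and 2 after 16 h: Clock (1.05), Per1 (1.15) and Cry1 (1.02) then joined Arntl at 4 h, and Clock (1.01) joined Nr1d1 at 16 h, on the log2 scale.

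Across the 5 libraries, 6 of the 9 genes had a highest level at least 4-fold above the lowest, as did 6.98% of the 9128 genes with 5 CPM or more in a library. For 3 of the 9 the span was 10-fold or more, as for 1.76% of those genes. Nr1d1 spanned 38.7-fold (32.0 to 47.2), Per2 35.5-fold (27.2 to 47.2) and Per3 16.0-fold (12.8 to 20.3). Arntl, Nr1d2 and Cry1 spanned 5.83-fold, 5.49-fold and 4.79-fold. Per1 (2.95-fold), Clock (2.12-fold) and Cry2 (1.63-fold) varied least. Among all genes with a 4-fold span, the share with its highest level in the library of 0, 4, 8, 16 or 24 h was 41.9%, 5.49%, 15.1%, 26.4% and 11.1%.

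**Figure D1:**
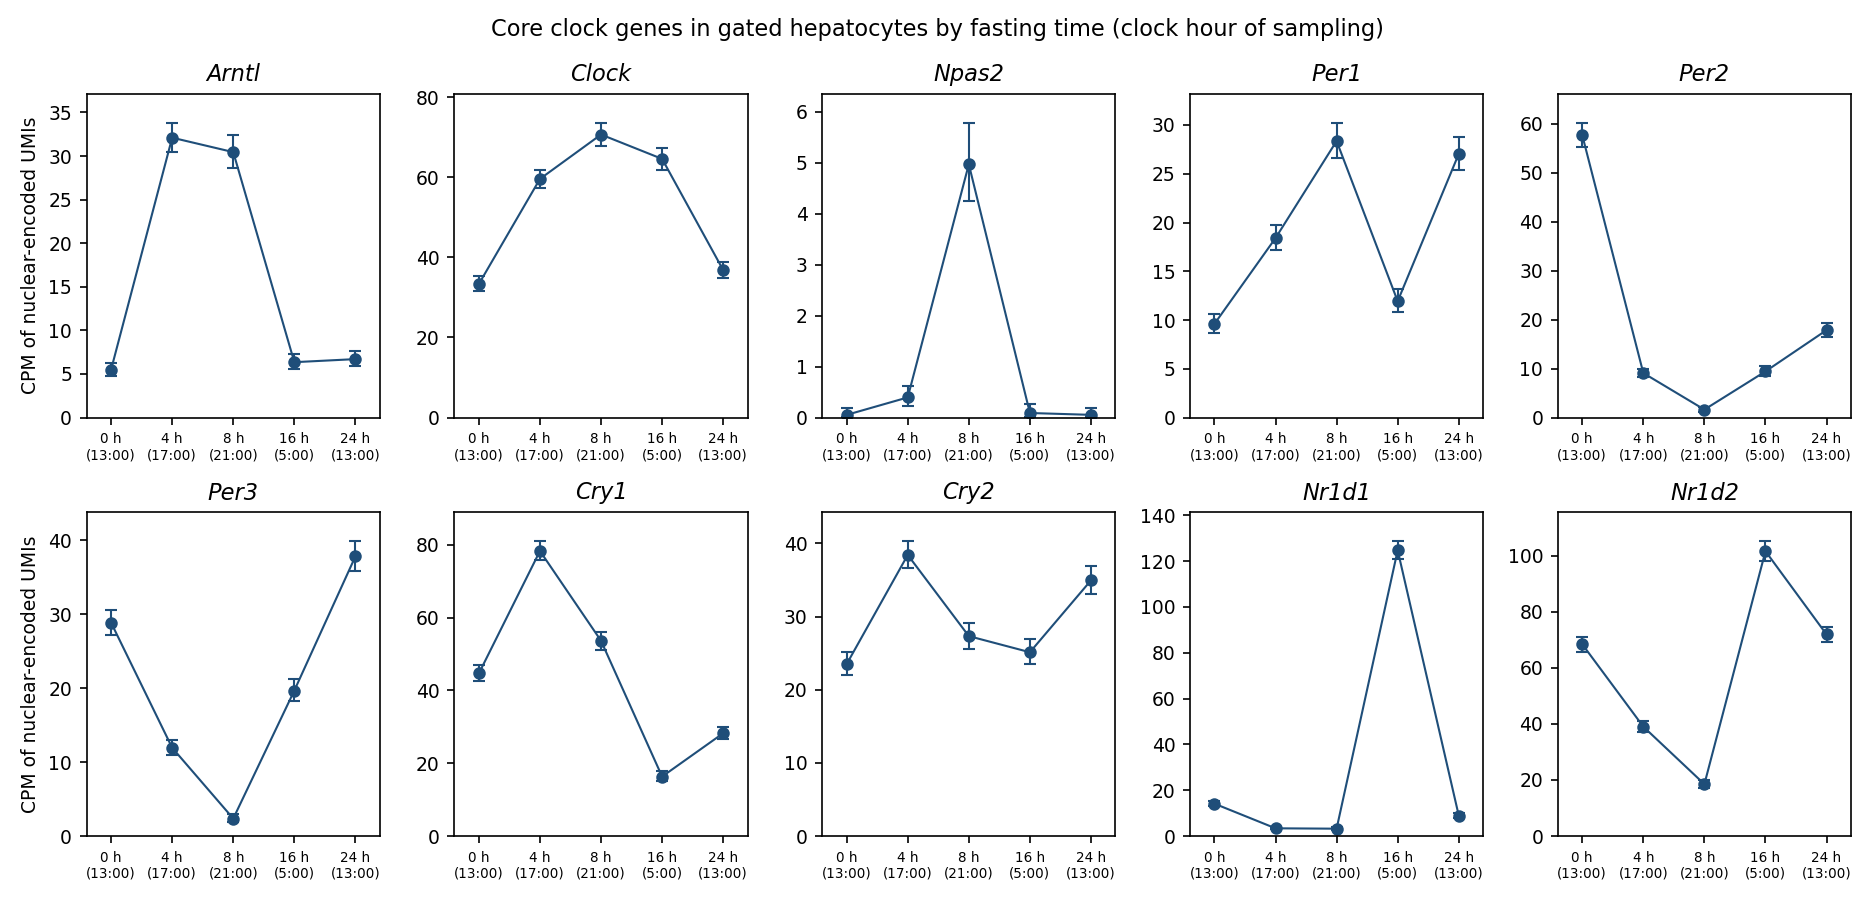
Level of each core clock gene, in CPM of nuclear-encoded UMIs, against fasting time with the clock hour of sampling in brackets. Points are the summed gated hepatocytes of 1 library and bars are exact Poisson intervals for counting error. Arntl stands near 30 CPM at 4 and 8 h only, Nr1d1 at 125 CPM at 16 h only, and Per2 and Per3 have their lowest points at 8 h.

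In the following, 5 values given for a gene are CPM after 0, 4, 8, 16 and 24 h of fasting. The genes of the activator complex were highest at hour 17 (Arntl) or hour 21 (Clock and Npas2). Arntl (ENSMUSG00000055116, chromosome 7, 113207465 to 113314126, plus strand, GRCm38) had levels of 5.50, 32.1, 30.5, 6.35 and 6.71 CPM. It was thus high at hours 17 and 21 and low at hours 5 and 13. The pair of high levels did not differ beyond counting error, nor did the 16 h level differ from that of 24 h or from fed. Against fed, the log2 ratio was 2.54 (2.33 to 2.76) after 4 h and 2.47 (2.25 to 2.69) after 8 h.

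Clock (ENSMUSG00000029238, chromosome 5, 76209868 to 76304792, minus strand), which encodes the partner of BMAL1, had 33.3, 59.6, 70.6, 64.6 and 36.8 CPM. It spanned less than Arntl and was high for longer: the 16 h library, where Arntl was low, still had 1.94-fold the fed level of Clock. Its log2 ratio against fed was 1.08 (0.98 to 1.18) after 8 h and 0.14 (0.031 to 0.25) after 24 h. In barcodes under 2% mitochondrial UMIs, outside the gate, these ratios were 0.21 (-0.33 to 0.74) and -0.44 (-0.76 to -0.10), which ends the first call and turns the sign of the second. Npas2 (ENSMUSG00000026077, chromosome 1, 39193731 to 39363236, plus strand), which can take the place of Clock, was counted almost entirely in 1 library. The 5 libraries gave 2, 18, 168, 3 and 2 UMIs, which is 4.97 CPM (4.24 to 5.78) in the 8 h library and 0.395 CPM or less in the others. The 8 h level was 12.6 times that of 4 h, a log2 ratio of 3.65 (2.95 to 4.44). The other 3 levels rest on 3 UMIs or fewer, and neighbours among them did not differ beyond counting error.

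The 3 Period genes, whose proteins act with the CRY repressors on the activator, did not share a pattern. Per2 (ENSMUSG00000055866, chromosome 1, 91415982 to 91459324, minus strand) had 57.7, 9.09, 1.63, 9.43 and 17.9 CPM. The fed library was the highest by a wide step, the 4 h and 16 h levels did not differ beyond counting error, and the 8 h level rests on 55 UMIs. Against fed, Per2 had log2 ratios of -2.67 (-2.82 to -2.51), -5.15 (-5.56 to -4.76) and -2.61 (-2.79 to -2.44) after 4, 8 and 16 h. Per3 (ENSMUSG00000028957, chromosome 4, 151003652 to 151044665, minus strand) had 28.9, 11.9, 2.37, 19.7 and 37.8 CPM. Its lowest library was that of Per2, but its highest was the 24 h one, and all neighbouring levels differed beyond counting error. The log2 ratios against fed were -1.27 (-1.42 to -1.12) after 4 h and -3.61 (-3.96 to -3.28) after 8 h. Per3 overlaps Camta1 on the same strand, so that reads in the overlap cannot be assigned by strand. Per1 (ENSMUSG00000020893, chromosome 11, 69095217 to 69109960, plus strand), the Period gene known for its acute response to hormones, had 9.61, 18.4, 28.4, 11.9 and 27.0 CPM. It was highest after 8 h, where Per2 and Per3 were lowest, and again after 24 h. Those top levels, at hours 21 and 13, did not differ beyond counting error. For Per1 the log2 ratios against fed were 0.94 (0.76 to 1.12), 1.56 (1.39 to 1.74) and 0.31 (0.10 to 0.52) after 4, 8 and 16 h.

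Cry1 (ENSMUSG00000020038, chromosome 10, 85131700 to 85185064, minus strand), which encodes a repressor of the activator, had 44.7, 78.3, 53.7, 16.3 and 28.3 CPM. All 5 levels differed from their neighbours in order by more than counting error, with the highest at hour 17 and the lowest at hour 5. Against fed, its log2 ratio was 0.81 (0.73 to 0.89) after 4 h and -1.45 (-1.59 to -1.31) after 16 h. The 4 h ratio depended on the mitochondrial limits: it was 0.15 in barcodes with 2 to 15% mitochondrial UMIs and 1.56 in those under 2%. Cry2 (ENSMUSG00000068742, chromosome 2, 92403646 to 92434043, minus strand), its paralogue, varied least, with 23.5, 38.4, 27.3, 25.1 and 34.9 CPM. Its 16 h level differed neither from the 8 h level nor from fed beyond counting error. The 4 h and 24 h libraries stood above these, with log2 ratios against fed of 0.71 and 0.57. Barcodes under 2% mitochondrial UMIs turned both directions, with -0.53 (-0.94 to -0.11) after 4 h and -0.41 (-0.79 to -0.025) after 24 h.

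The REV-ERB genes were highest at hour 5. Nr1d1 (ENSMUSG00000020889, chromosome 11, 98767932 to 98775333, minus strand) had 14.1, 3.38, 3.22, 125 and 8.94 CPM. A single library held the peak: the 16 h level was 8.82 times the next highest, which was fed, and the 4 h and 8 h levels did not differ beyond counting error. The log2 ratios against fed were -2.06, -2.13 and 3.14 (3.01 to 3.27) after 4, 8 and 16 h. Nr1d1 overlaps Thra, a protein-coding gene on the opposite strand, and whether the counting used strand is not given in the sources used here. Nr1d2 (ENSMUSG00000021775, chromosome 14, 18204054 to 18239127, minus strand) also had its highest level after 16 h and its lowest after 8 h, with a smaller span, at 68.4, 39.0, 18.5, 102 and 71.9 CPM. The fed and 24 h levels, both at hour 13, did not differ beyond counting error. Against fed, Nr1d2 had log2 ratios of -0.81, -1.89 (-2.01 to -1.76) and 0.57 after 4, 8 and 16 h.

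The 16 h library, in which the REV-ERB genes peaked, was also the library with the most acute-phase transcripts: Saa1 stood at 4880.2 CPM and Saa2, a near-identical copy, at 4946 CPM there, against 382 and 217 CPM in the fed library. When the 16 h hepatocytes were split into 3 parts by their share of Saa1, Saa2, Saa3 and Lcn2 UMIs, the summed level of these genes was 367, 8874 and 20570 CPM. Nr1d1 stood at 115 CPM (108 to 121), 127 CPM (120 to 134) and 131 CPM (125 to 138) in these parts, which all come from the same library. Any role of the acute-phase response in the Nr1d1 level was not tested. Nr1d2 stood at 99.5, 107 and 98.4 CPM. Cry1 differed more between the parts, at 21.8 CPM (19.1 to 24.8), 18.1 CPM and 9.89 CPM (8.18 to 11.8) from the lowest to the highest. Per2 stood at 11.7, 9.46 and 7.37 CPM and Per1 at 12.2, 13.4 and 10.4 CPM. Per3 had the opposite order to Per2, at 16.8 CPM (14.4 to 19.5), 20.9 CPM (18.3 to 23.8) and 21.1 CPM (18.6 to 23.9). Arntl, at 5.67, 6.00 and 7.29 CPM, and Clock, at 64.7, 66.3 and 62.8 CPM, did not differ between the lowest and highest part beyond counting error. The share of each lobule zone (described below) in these parts was not examined. Cry1, Per2 and Nr1d1 also differed between the portal and central zone at 16 h, and Per3 did not beyond counting error. A link of the differences between parts with zone was not tested.

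Promoter sequences of the members were read from RefSeq (GRCm38.p6) for the 250 bases before each annotated start, which gave 13 windows for 9 of the genes; Per2 had none. The counts of motifs below are over these 9 genes, each counted once if any of its windows held the motif. The shares in brackets are of single windows, so that the counts and shares have unlike units. The 4 windows shown are of genes that held an E-box, an E-prime box or a D-box and peaked at different hours. Capitals mark the E-box CACGTG and the E-prime box CACGTT, each on either strand, and the D-box TTATGTAA. For the D-box, TTACGTAA was searched as well.
Per1, chr11:69098699-69098948, plus strand: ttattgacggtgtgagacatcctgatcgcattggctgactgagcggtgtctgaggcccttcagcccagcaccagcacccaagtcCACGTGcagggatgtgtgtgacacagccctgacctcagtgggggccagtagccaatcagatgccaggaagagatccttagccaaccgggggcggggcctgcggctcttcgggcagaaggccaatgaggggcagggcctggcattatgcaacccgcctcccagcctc
Cry1, chr10:85185055-85185304, minus strand: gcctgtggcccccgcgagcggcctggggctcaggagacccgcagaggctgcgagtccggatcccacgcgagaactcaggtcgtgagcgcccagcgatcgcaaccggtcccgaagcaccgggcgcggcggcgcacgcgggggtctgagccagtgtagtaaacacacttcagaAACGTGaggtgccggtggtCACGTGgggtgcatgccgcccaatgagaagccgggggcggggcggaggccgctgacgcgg
Nr1d1, chr11:98775378-98775627, minus strand: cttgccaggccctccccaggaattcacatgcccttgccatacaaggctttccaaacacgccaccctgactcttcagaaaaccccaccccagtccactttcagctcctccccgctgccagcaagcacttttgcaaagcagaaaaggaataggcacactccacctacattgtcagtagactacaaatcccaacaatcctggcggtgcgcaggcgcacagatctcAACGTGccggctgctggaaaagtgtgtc
Per3, chr4:151044666-151044915, minus strand: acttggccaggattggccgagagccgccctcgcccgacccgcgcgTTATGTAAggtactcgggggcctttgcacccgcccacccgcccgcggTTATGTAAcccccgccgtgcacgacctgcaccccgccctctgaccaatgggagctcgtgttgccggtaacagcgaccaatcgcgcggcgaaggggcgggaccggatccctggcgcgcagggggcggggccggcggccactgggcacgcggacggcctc
The E-box was found in the windows of 2 genes, Per1 and Cry1, 166 and 60 bases before the start (6.02% of 32851 windows of this length held it). The E-prime box was found in those of Cry1, Cry2 and Nr1d1 (3.85% of windows). A D-box was found in 1 gene, Per3, which had 2 copies (0.931% of windows). Cry1 and Nr1d1, which both carried an E-prime box here, had their highest levels at hours 17 and 5, and Per1 and Cry1, which both carried an E-box, at hours 21 and 17. The ROR elements searched (AATAGGTCA or ATTAGGTCA, or AAC before TAGGTCA, in 0.338% of windows) and the full cAMP element TGACGTCA (1.55%) were in no member window. Other spellings, and bases outside these windows, were not searched, so this does not show that a promoter lacks such elements. The core TGACG of the cAMP element, which the full element holds as well, was in windows of Per1, Cry1 and Cry2 (17.8% of windows). A match is a description of the letters and not a measured binding site.

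The 24 h and fed libraries were sampled at the same clock hour and differ in fasting by a day. With 1 library each, fasting cannot be told apart from other differences between these libraries. Per1 and Per2 differed at least 2-fold, in opposite directions, and the other 7 members tested lay within 2-fold, as did all but 14.3% of 8888 genes. Per2 was 3.23-fold lower after 24 h, at 17.9 against 57.7 CPM, a log2 ratio of -1.69 (-1.82 to -1.57). Per1 was 2.81-fold higher, at 27.0 against 9.61 CPM, a log2 ratio of 1.49 (1.32 to 1.67). Among the other members, Cry1 (log2 ratio -0.66, -0.77 to -0.55) and Nr1d1 (-0.66, -0.86 to -0.46) were lower, and Cry2 (0.57, 0.45 to 0.70) and Per3 (0.39, 0.28 to 0.51) were higher. The ratios of Arntl (0.28, 0.014 to 0.56) and Clock (0.14) were near the limit of counting error, and that of Nr1d2 (0.071, -0.0070 to 0.15) was not detectable at this depth. In barcodes under 2% mitochondrial UMIs the direction turned for Cry2 (-0.41), Clock (-0.44), Cry1 (0.25, -0.19 to 0.72) and Nr1d2 (-0.21, -0.45 to 0.039), the latter pair within counting error of 0. Over 10 other settings Per2 ranged from -1.85 to -1.32 and Per1 from 1.03 to 1.67.

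**Figure D2:**
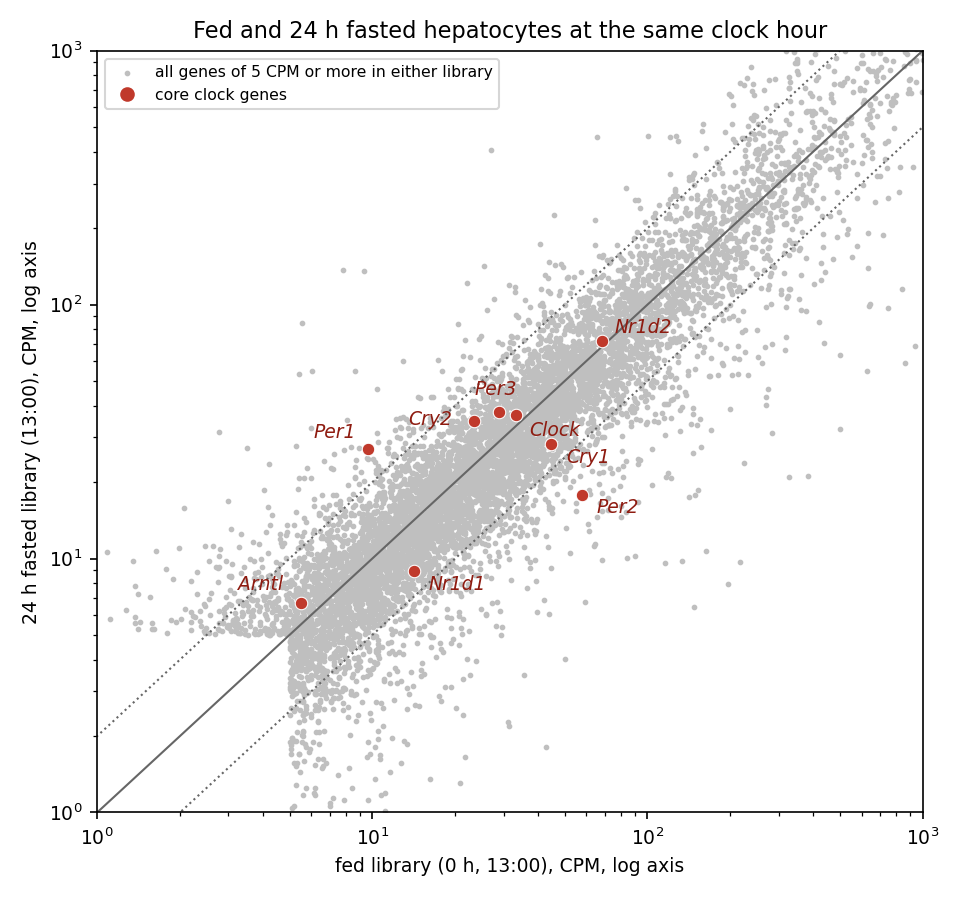
Level in the 24 h fasted library against the fed library, both sampled at hour 13, in CPM on log axes limited to 1 to 1000. Grey points are all genes of 5 CPM or more in either library, red points are 9 core clock genes, the solid line marks equal levels and the dotted lines a 2-fold difference. Per1 (27.0 against 9.61 CPM) lies above the upper dotted line and Per2 (17.9 against 57.7 CPM) below the lower one.

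Beside Per1, which responds to hormones and handling, 2 lists were counted at each time. Of the 6 glucocorticoid-induced genes, 3 were at least 2-fold higher than fed after 4 h (3.75% of all genes were), 5 after 8 h (5.54%), 2 of 5 tested after 16 h (3.0%) and 3 after 24 h (4.92%), and none was lower. Fkbp5 had 22.1, 134, 288, 37.7 and 122 CPM, with its lowest levels in the libraries where Per1 was lowest. Zbtb16 and Mt1 were also lowest in those libraries. After 24 h, where Per1 was high, Tsc22d3 was near fed (172 against 167 CPM). Tat (1304 against 1657 CPM) and Sgk1 (11.1 against 14.8 CPM) were below fed there. Sgk1 and Mt1 were the genes higher after 16 h, where Per1 was near its fed level, at 35.3 against 14.8 CPM and 1452 against 111 CPM. Of the immediate-early genes, which respond to cell isolation, 2 of 8 tested were higher and 1 lower after 4 h (6.72% of all genes were lower), 0 of 7 higher and 4 lower after 8 h (11.8%), 2 of 8 higher and 0 lower after 16 h (4.18%), and 0 of 7 higher and 3 lower after 24 h (9.39%). Egr1 had 39.1, 94.1, 17.8, 150 and 20.5 CPM. It was above fed after 4 h, where Per1 was 1.92-fold higher, and below fed at both high points of Per1. Fos, Jun, Junb and Dusp1 were below fed at both of these points as well. Ier2 went the other way, at 46.3 CPM after 8 h and 32.4 CPM after 24 h against 26.8 CPM in the fed library. Zfp36 was slightly above fed at both, at 126 and 128 against 121 CPM. The part of either group in the Per1 levels was not tested.

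The accessory clock list, as reported here, held 17 genes that modify the loop or carry its output. At 4 h, 1 of 13 tested was at least 2-fold higher than fed and 5 were lower (10.5% of all genes passed either way). Of 13 tested at 8 h, 1 was higher and 6 were lower (17.3% either way). At 16 h, 1 of 15 was higher and 2 were lower (7.18%). At 24 h 1 of 13 was higher and 1 lower, which is near the 14.3% of all genes. Dbp, an activator that binds D-boxes, stood at 55.3, 6.17, 1.92, 79.7 and 62.9 CPM. Its low and high libraries were those of Nr1d2. Tef and Hlf, of the same family, were lowest at 8 h as well, at 42.3 and 76.5 CPM, and within 2-fold of fed at the other times. Nfil3, which represses through D-boxes, stood at 15.9, 37.9, 61.2, 13.2 and 17.9 CPM and was thus high in the libraries where Dbp was low. Rora, an activator at ROR elements, varied 1.56-fold over all libraries. Wee1, a cell cycle kinase gene and known clock target, stood at 30.1, 12.1, 1.09, 9.25 and 20.1 CPM, with its highest and lowest libraries those of Per2. At hour 13, Bhlhe40, a repressor of E-box genes, was lower after 24 h (95.6 against 363 CPM, log2 ratio -1.92), and Usp2, a deubiquitinase gene, was higher (93.6 against 42.1 CPM, log2 ratio 1.15). Dbp (0.19), Tef (0.15), Hlf (-0.10) and Nfil3 (0.17) had log2 ratios near 0 in that comparison. Timeless and Arntl2 stayed under 1 CPM.

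**Figure D3:**
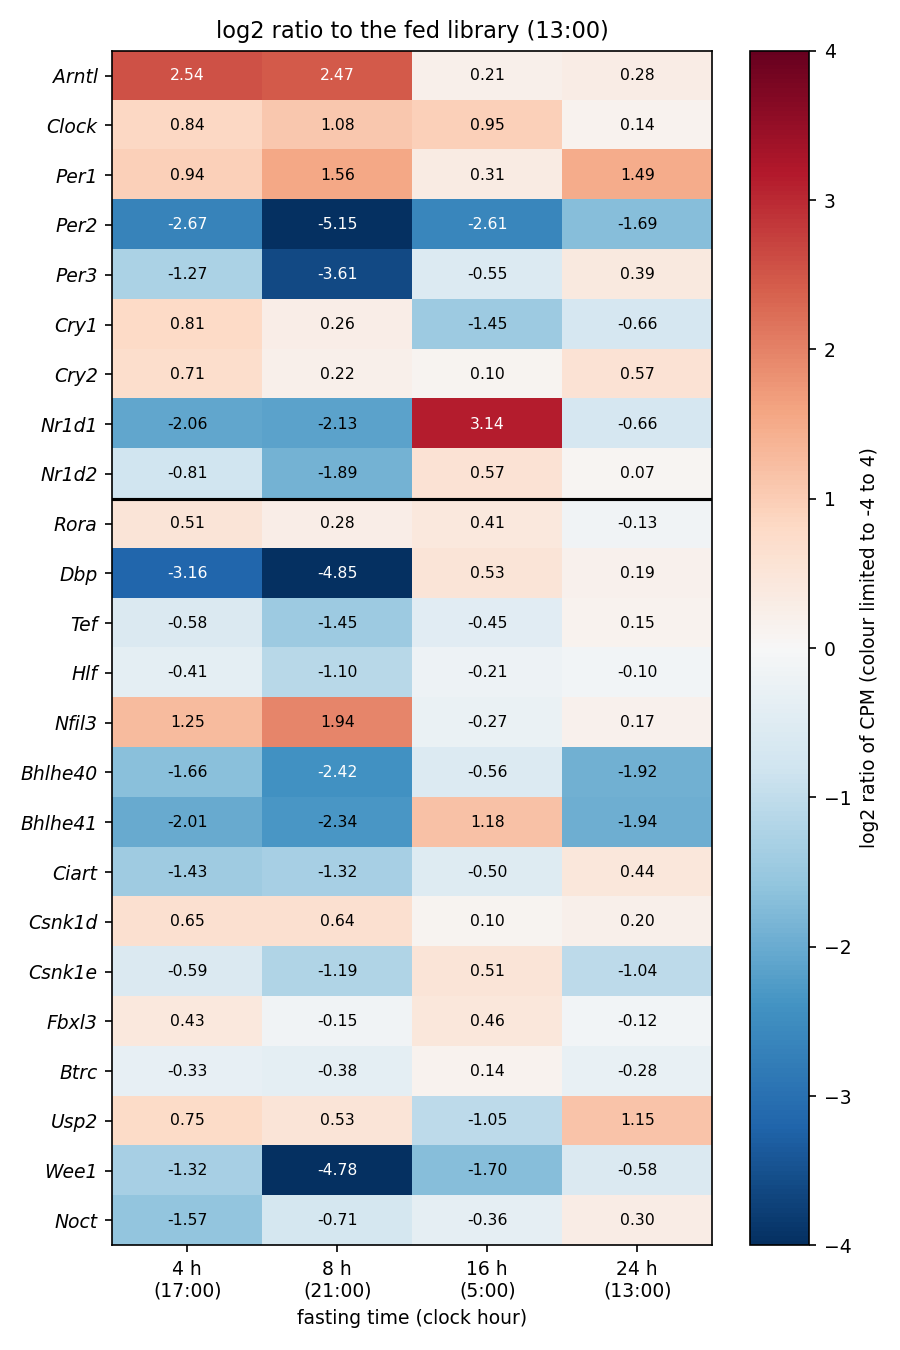
Log2 ratio of CPM to the fed library for 9 core clock genes (above the line) and 15 genes of the accessory list with 5 CPM or more in a comparison (below it), by fasting time with the clock hour. Red marks a higher and blue a lower level than fed, with the value printed in each cell. The 8 h column holds the lowest ratios (Per2 -5.15, Dbp -4.85, Wee1 -4.78, Per3 -3.61), and the 24 h column is within 1 unit of 0 except for Per1, Per2, Bhlhe40, Bhlhe41, Csnk1e and Usp2.

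Between successive libraries, most members passed 2-fold in the step from hour 21 to hour 5. From 4 to 8 h, 0 of 8 members tested were at least 2-fold higher (1.21% of 8560 genes) and 3 were lower (2.43%, and 3.64% either way), namely Per2, Per3 and Nr1d2. From 8 to 16 h, 4 of 9 were higher (10.8% of 8782 genes) and 3 were lower (7.01%, and 17.8% either way). Nr1d1 was 38.7-fold higher at 16 h than at 8 h (log2 ratio 5.27, 5.00 to 5.56), Per3 8.32-fold, Per2 5.80-fold and Nr1d2 5.49-fold. In the same step Arntl was 4.79-fold lower, Cry1 3.28-fold and Per1 2.38-fold. From 16 to 24 h, 1 of 9 was higher (Per1, 2.27-fold, against 5.17% of 8736 genes) and 1 was lower (Nr1d1, 13.9-fold, against 5.99%, and 11.2% either way).

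Zones of the liver lobule were compared because the metabolic genes of hepatocytes differ between the portal and the central end. The gated cells of each library were split into 3 equal parts by a score of 12 portal and 14 central landmark genes. These parts are ranges of a score and not positions in tissue, and 18.4% to 27.7% of cells lay within 0.1 SD of a limit. The landmarks themselves were split least in the 24 h library, by a median of 1.13 on the log2 scale against 2.17 to 4.92 in the others, over the 20 to 25 of 26 landmarks with UMIs in both parts. There the portal landmark Sds was higher in the central part (560 against 441 CPM), and the central landmarks Glul and Aldh1a1 had portal to central log2 ratios of only -0.31 and -0.067. Cells of the central part had fewer UMIs in every library. The median in the central against the portal part was 2717 against 7290 at 0 h, 2708 against 19940 after 4 h, 10454 against 16636 after 8 h, 3677 against 4821 after 16 h and 2977 against 14842 after 24 h, and a link between depth and zone was not tested. In the fed library Nr1d1 had 19.7 CPM in the central part and 11.7 CPM in the portal part, a portal to central log2 ratio of -0.75 (-1.05 to -0.44). It was also lower in the portal part at 16 h (118 against 138 CPM, -0.23, -0.34 to -0.13). Cry1 had the opposite tilt in 4 libraries, with log2 ratios of 0.47, 0.24, 0.79 and 0.78 after 0, 4, 16 and 24 h, and -0.16 (-0.33 to 0.0072) after 8 h. Per2 was higher in the portal part in the same 4 libraries, by 0.29, 0.54, 0.79 and 0.71. Per3 was lower there at 4 h (-0.69, -0.99 to -0.38) and higher at 24 h (0.43, 0.21 to 0.66). Npas2 at 8 h had 5.60 CPM in the portal part (72 UMIs) and 2.43 CPM in the central part (21 UMIs), a log2 ratio of 1.20 (0.49 to 1.98). It reached the minimum of 5 CPM in this contrast only through the portal part, where it was high, and not in the whole library (4.97 CPM). The middle part had 6.08 CPM.

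By count, 4 of 9 members at 0 h, 5 of 8 at 4 h, 3 of 7 at 8 h, 3 of 9 at 16 h and 8 of 9 at 24 h were higher in the portal part by more than counting error, as were 18.6%, 20.8%, 12.2%, 14.5% and 48.9% of all genes tested. Lower in the portal part by the same measure were 1, 2, 0, 2 and 0 members, and 20.7%, 25.5%, 25.3%, 24.8% and 15.5% of all genes. Of the members only Npas2 at 8 h passed 2-fold, as did 2.8% of all genes in that library and 4.98%, 4.16%, 3.73% and 4.52% at 0, 4, 16 and 24 h. Npas2, also 1 of the 3 members counted as higher at 8 h, entered these counts only through its portal level. At 24 h the median gene of the 8583 tested was itself higher in the portal part, by 0.27 on the log2 scale, and 73.5% of genes were, so that the count of 8 lies beside a shift of the whole library. With zones made from cells of 3000 or more UMIs, an alternative added after the data had been seen, the counts were 4, 3, 3, 2 and 6 in time order. The contrast of 24 h with fed kept its direction in each zone for both genes that passed 2-fold. Per2 had log2 ratios of -1.61, -1.73 and -2.02 in the portal, middle and central part, and Per1 of 1.62, 1.64 and 0.79 (0.39 to 1.21). Over all genes tested the median of this contrast was -0.048, -0.10 and -0.29 in these parts.

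**Figure D4:**
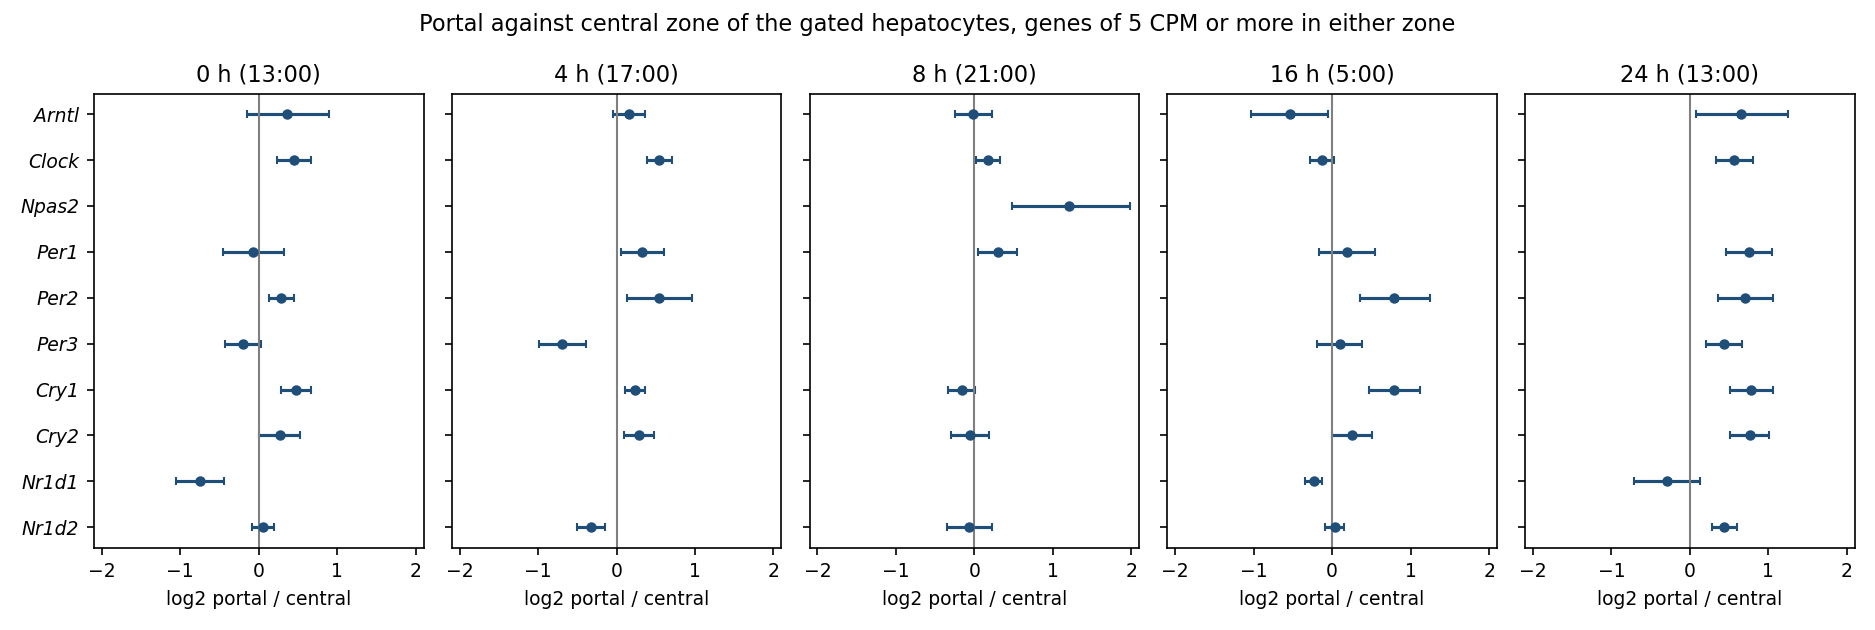
Log2 ratio of the portal to the central part of gated hepatocytes for each core clock gene of 5 CPM or more in either part, in 1 panel per library. Points are ratios of summed CPM and bars exact conditional binomial intervals for counting error. Nr1d1 lies left of 0 at 0 h (-0.75) and 16 h (-0.23), and 8 of 9 genes lie right of 0 at 24 h, where the median of all genes was 0.27.

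Barcodes under 2% mitochondrial UMIs, which the gate leaves out, numbered 2172, 5345, 576, 234 and 5400 in time order. They came from the same libraries and so are not a second sample. Nr1d1 stood at 18.4, 1.51, 3.27, 99.1 and 5.62 CPM in them, again highest at 16 h. Arntl stood at 2.73, 12.9, 8.51, 5.08 and 2.78 CPM, with the 16 h value on 2 UMIs. Per2 stood at 23.6, 3.99, 1.96 and 9.48 CPM at 0, 4, 8 and 24 h, and 0 UMIs were counted at 16 h, for which the exact interval reaches 9.37 CPM. For 24 h against fed the log2 ratio was -1.32 (-1.68 to -0.94) for Per2 and 1.03 (0.46 to 1.66) for Per1. Of 34 member ratios to fed with values in both sets of barcodes, 26 had the same sign. The others were those of Cry2 at all 4 times, Clock at 4 and 24 h, and Cry1 and Nr1d2 at 24 h. The lower level of Cry1 after 16 h was not detectable here (-0.29, -2.22 to 1.16, on 4 UMIs), and Nr1d1 after 24 h passed 2-fold (-1.71, -2.15 to -1.26). Erythroid transcripts were abundant in these barcodes at 24 h, with Hbb-bs at 2121 CPM against 205 CPM at 0 h.

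**Figure D5:**
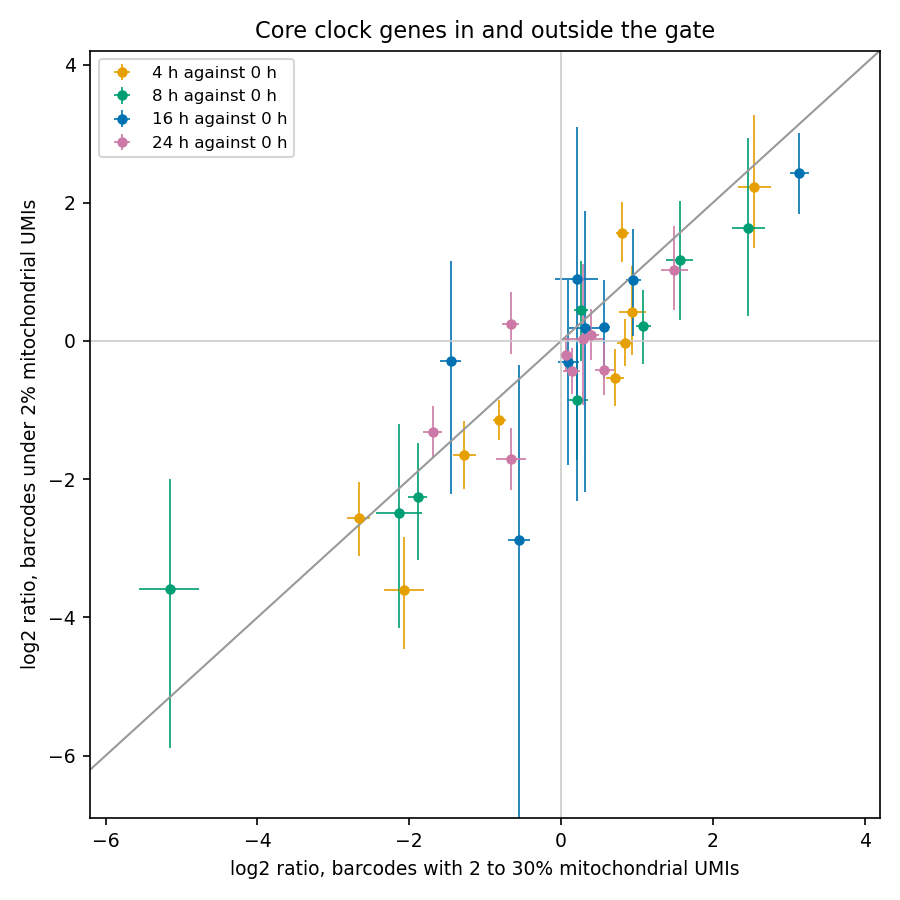
Log2 ratio to the fed library of core clock genes in barcodes under 2% mitochondrial UMIs (vertical axis) against the gated barcodes (horizontal axis), with 1 colour per fasting time. Bars are exact conditional binomial intervals for counting error (that of Per3 at 16 h runs past the lower edge, to -8.20) and the diagonal marks equal ratios. Nr1d1 at 16 h (2.43 against 3.14) and Per2 at 8 h (-3.59 against -5.15) lie on opposite sides of 0, and Cry2 has points above 0 on the horizontal and below it on the vertical axis.

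Genes with a profile like that of a member were ranked by the root-mean-square difference of their centred log2(CPM + 1) profiles over the 5 libraries, among genes with 20 CPM or more in a library. Nearest to Arntl were Ablim3 (0.25), Cyp2b10 (0.31), Socs2 (0.31), Clpx (0.35) and Nfil3 (0.40). Cyp2b10, for example, stood at 6.01, 45.2, 49.5, 6.80 and 5.77 CPM. Nearest to Per1 were Ube3b (0.094), Pim3 (0.095), Cox7a2l (0.12), Dnmbp (0.13) and St3gal5 (0.13). No gene came as close to Nr1d1, for which Apcs (0.82), Saa3 (0.85), Arrdc3 (0.94), Nr2f2 (0.94) and Rbfox2 (0.94) were nearest, and Apcs and Saa3 belong to the acute-phase genes that were high in the same library. The profiles were not scaled by their span, which was 38.7-fold for Nr1d1, 5.83-fold for Arntl and 2.95-fold for Per1. Distances can therefore not be compared between these members. With 5 points, many genes share a profile, and the ranking is a description of these libraries.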

How the data were processed

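Single-cell libraries of isolated mouse hepatocytes were made with a droplet 3' kit, per the labels' protocols. The authors deposited raw UMI counts per gene and barcode, and the matrix header and the submitters' processing notes name Cell Ranger 6.0.1, the notes also mm10; a table names the library of each barcode. The annotation, any filter and the use of strand or introns in counting are not given in the sources used here. Barcodes through the gate (1000 UMIs, 500 genes, 2 to 30% mitochondrial) were summed per library without clustering, doublet calls or removal of other cells, and divided by nuclear-encoded UMIs. Since 3' UMIs count transcript ends, levels were not divided by length. Poisson intervals for CPM and conditional binomial intervals for ratios are exact, at 95%, and cover counting error only. No p-value was computed. Sums and intervals used scipy 1.17.1 and numpy 2.4.6, tables pandas 2.3.3 and figures matplotlib 3.10.9, in python 3.11.15. TMM factors came from edgeR 4.0.16. Calls and intervals were tested on simulated data. Barcodes with 2 or more markers of one other cell type, 3 or more UMIs of them and 10 in 10000 UMIs were left out in one alternative. Other alternatives changed the denominator, the mitochondrial and UMI limits and the 5 CPM minimum, took the mean over cells, or subtracted 10% of a profile of barcodes under 1% mitochondrial UMIs. Positions are from GENCODE M21, which held 32158 of the 32285 gene IDs. The rule for named genes was all members, accessory genes of 5 CPM or more where a count is given, and the 5 nearest profiles of Arntl, Nr1d1 and Per1; single genes of the check lists were picked as examples after their values were seen. The members and lists were chosen with earlier results of these data known. One gene of the accessory list is not reported here and was left out of its counts.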

Additional observations from a re-analysis of the deposited data

Results flagged for a closer look

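Nr1d2 was the only member whose 24 h to fed log2 ratio lay above 0 in the portal part, at 0.17 (0.054 to 0.28), and below 0 in the central part, at -0.21 (-0.40 to -0.029), by more than counting error. The same contrast had a median of -0.048 in the portal and -0.29 in the central part over all genes tested, a gap in the same direction. The difference between the zones was not tested, since each zone comes from 1 library per time. With zones made from cells of 3000 or more UMIs the values were 0.16 (0.032 to 0.29) and -0.11 (-0.27 to 0.047), so that the central value was then within counting error.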

How the results depend on the processing

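Counts of members past 2-fold were recomputed under 12 settings. TMM scaling, which moved the median log2 ratio of all genes from -0.095 to 0.11 at 4 h and from -0.090 to 0.14 at 8 h, gave 4 members higher at 4 h (1 as reported) and 2 higher at 16 h (1). The mean of per-cell CPM also gave 2 higher at 16 h. Barcodes under 2% mitochondrial UMIs gave 2 higher at 4 h and 2 lower at 24 h (1). A minimum of 50 CPM left 0 higher and 1 lower at 4 h, 1 higher and 2 lower at 8 h, 1 lower at 16 h and 0 higher at 24 h, since it tests fewer genes. Zones from cells of 3000 or more UMIs gave 3 members higher in the portal part at 4 h (5). All 16 member ratios past 2-fold kept their direction in each of the 10 settings that gave a value, and 10 of all 40 member ratios changed sign in at least 1, each of them within 2-fold of fed or, for Npas2, under the 5 CPM minimum. For these the cause was not tested. Low counts limit Npas2 outside 8 h and Per2 and Per3 at 8 h. No paired analysis was possible because each time point has 1 library, and no library could be left out of its group.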
